A study of Mus musculus with 6 samples.

Results

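The miR-17~92 cluster is a group of 6 miRNA hairpins cut from 1 primary transcript, and this report describes 9 genes that are known as its targets from work in cancer and development. The genes are *E2f1*, *E2f2*, *E2f3*, *Rbl2*, *Cdkn1a*, *Bcl2l11*, *Tgfbr2*, *Thbs1* and *Socs3*. The rule for membership names them and uses no measured value, and every transcript listed under each symbol was kept. All 9 were found among 23276 gene symbols, with 18 transcripts in all. The RNA came from kidneys of 6 mice of the *Pkd1*F/RC model of polycystic kidney disease. These mice carry on 1 *Pkd1* allele the hypomorphic RC mutation in every cell and on the other allele *loxP* sites that Ksp/Cre, a Cre recombinase active in kidney tubules, recombines. The 3 *Pkd1*F/RC SKO mice (single knockout) had the genotype KspCre with *Pkd1* F/RC. The 3 *Pkd1*F/RC DKO mice (double knockout) also carried miR17~92 F/F. The same Cre thus removes the cluster from the tubule cells in which it is active, while other kidney cells keep it. Which tubule cells these are was not measured here. The labels give the age of all 6 as postnatal day 22. Both groups therefore shared KspCre and the *Pkd1* alleles, and no wild-type kidney was analysed here.

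A miRNA guides a silencing complex to messenger RNAs, mostly through pairing between its seed, the stretch near its 5′ end, and the 3′ untranslated region (3′ UTR). Pairing usually lowers the amount or the translation of the messenger. In cancer miR-17~92 acts as an oncogene that promotes proliferation and survival, and its known targets include brakes on the cell cycle and a trigger of apoptosis. In the polycystic kidney, cysts grow from proliferating tubule cells.

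The mature sequences show which targets each miRNA of the cluster can pair with. They are from RefSeq (GRCm38.p6), are written 5′ to 3′, and have the seed (bases 2 to 8) in capitals.
miR-17-5p, chr14:115043684-115043706: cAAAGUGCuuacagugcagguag
miR-20a-5p, chr14:115044183-115044205: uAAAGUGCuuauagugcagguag
miR-18a-5p, chr14:115043867-115043889: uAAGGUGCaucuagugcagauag
miR-19a-3p, chr14:115044048-115044070: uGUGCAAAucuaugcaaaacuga
miR-19b-3p, chr14:115044358-115044380: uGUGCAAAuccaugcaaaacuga
miR-92a-3p, chr14:115044476-115044496: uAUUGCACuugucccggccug

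All 6 hairpins lie on the plus strand of chromosome 14 between 115043671 and 115044506. The 6 miRNAs hold 4 seeds, since miR-17 and miR-20a share AAAGUGC, and miR-19a and miR-19b share GUGCAAA. On the messenger these seeds pair with GCACTTT for miR-17 and miR-20a, GCACCTT for miR-18a, TTTGCAC for miR-19a and miR-19b, and GTGCAAT for miR-92a. The miR-17 seed is not particular to the cluster. Of the mature mouse miRNAs in RefSeq, 7 hold it, among them miR-106a, miR-20b, miR-106b and miR-93, which are encoded outside chromosome 14 and which the floxed cluster does not include. The miR-92 seed is held by 6 mature miRNAs, and the seeds of miR-18 and miR-19 by 2 each.

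Each of the 9 genes was assigned the 3′ UTR of its highest RefSeq transcript, read from the GENCODE annotation of GRCm38, and the sense strand of these UTRs was searched for the 4 matches. The 9 UTRs held 21 matches, and all 21 lay in the last exon of the transcript. Of these, 6 were followed by an A, which makes an 8-mer match, and 15 were 7-mers. The miR-17 match was the most frequent, with 10 occurrences in 7 of the genes. *Thbs1* and *Socs3* held none. Because the 9 genes were picked as known targets, their number of matches is a description and not evidence that they are targets. The same 7-base miR-17 match occurred in 11.0% of the 18927 3′ UTRs that could be read, whose median length was 787 bases against 2104 for the 9 genes.

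The windows below hold the 10 miR-17 matches, the matches of the 2 genes without one, and an overlapping pair of matches in *E2f2*, as 30 bases of messenger from GRCm38, 5′ to 3′, with the seed match in capitals. Where matches of 2 families overlap, the capitals cover both.
*E2f1* first window, chr2:154560200-154560229, minus strand: gggctctaactGCACTTTtggtgtccttgc
*E2f1* second window, chr2:154559685-154559714, minus strand: ccctccagtctGCACTTTgatttgtttcct
*E2f2* miR-17 window, chr4:136194368-136194397, plus strand: tcagtggggcaGCACTTTttgcttgttgtt
*E2f2* overlap of miR-19 and miR-18, chr4:136194012-136194041, plus strand: tggtgacaggTTTGCACCTTtccccactgg
*E2f3*, chr13:29908066-29908095, minus strand: agaagacaccgGCACTTTaaactctgtgtg
*Rbl2* first window, chr8:91123140-91123169, plus strand: tgtaattggtgGCACTTTatggctgtaaga
*Rbl2* second window, chr8:91123201-91123230, plus strand: tatttatgatgGCACTTTctatggtgtgaa
*Cdkn1a*, chr17:29099818-29099847, plus strand: agacctgaataGCACTTTggaaaaatgagt
*Bcl2l11* first window, chr2:128159767-128159796, plus strand: ctggtggaggaGCACTTTctaacctgtgga
*Bcl2l11* second window, chr2:128160441-128160470, plus strand: ccccgactggaGCACTTTactgtctcagcc
*Tgfbr2* overlap of miR-19 and miR-17, chr9:116090064-116090093, minus strand: gccaataacgTTTGCACTTTattaatgcct
*Thbs1* miR-18 window, chr2:118125053-118125082, plus strand: gcgctggcaatGCACCTTctaaaaacaagg
*Socs3* miR-19 window, chr11:117966148-117966177, minus strand: tcaactcagacTTTGCACatatatttatat

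**Figure D1:**
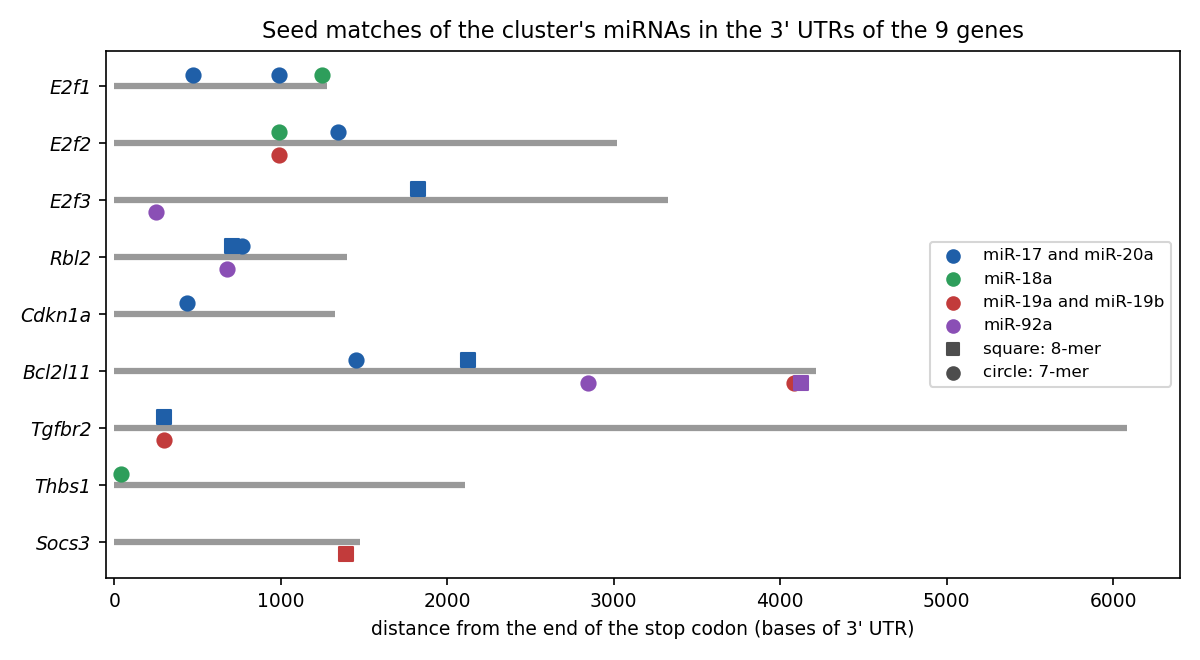
Position of the 21 seed matches along the 3′ UTR of each gene, in bases from the end of the stop codon; the grey bar is the length of the UTR, colours are the 4 seed families, squares are 8-mers and circles 7-mers. The miR-17 matches of *Rbl2* lie close together, *Tgfbr2* and *E2f2* each hold an overlapping pair, and *Thbs1* and *Socs3* hold 1 match each, at opposite ends of their UTRs.

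The measured quantity was the abundance of each transcript in total kidney RNA. The deposited value is a mean log2 CPM (read counts scaled to the size of the library) over all 6 kidneys, computed by the authors, so no value has an error, an n or a split between SKO and DKO. For that reason no DKO against SKO difference was tested, and the deposited columns of the authors' own comparison were not used. The level of the deleted cluster in each group, which would check the labels, could not be read from the mean either. In the mean over both groups, *Mir17hg*, listed as the host transcript, stood at 2.07 log2 CPM. Its annotated locus, chr14:115044390-115046728, contains only 1 of the 6 hairpins whole, so this level does not cover the whole cluster. The hairpins *Mir17*, *Mir18*, *Mir19a*, *Mir20a* and *Mir19b-1* were listed between -5.25 and -4.82 log2 CPM, where -5.25 is the lowest value of the table and is shared by 4617 transcripts, and *Mir92-1* was not listed. These entries count reads on the hairpin and do not measure the mature miRNA. In bulk RNA fewer cells of a type and less RNA per cell cannot be told apart. The labelled tissue was checked with markers: the 7 tubule markers had a median of 9.15 log2 CPM, with *Slc34a1*, the phosphate transporter of the proximal tubule, the highest per kilobase at 423 CPM per kilobase (with the longest transcript of each gene it was 258, below *Umod* at 374). Of the 3 genes chosen as markers of other organs, the muscle gene *Myh6* and the islet gene *Ins2* stood at -2.54 and -5.17 log2 CPM. The liver gene *Alb* did not follow them and stood at 3.74 log2 CPM. Markers of cells in which Ksp/Cre is not active were present as well, with medians of 4.37 for podocytes, 5.47 for endothelium, 6.24 for mesenchyme and 2.37 for macrophages, and the part of these cells in the level of any target was not tested.

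All 9 targets were detected at a mean of at least 1 CPM, a level reached by 13001 of the 23276 genes. Since a longer transcript collects more reads, levels of different genes were compared as CPM per kilobase of the transcript, which could be computed for 22461 symbols. On that scale the median of the 9 was 1.33 on the log2 scale, the median over all genes was -0.07, and 8 of the 9 lay above it. All genes here include those below 1 CPM, and division by length raises short ones. The hairpin *Mir19a*, of 82 bases and at the lowest value of the table, stood above 40.0% of genes per kilobase. The shares of genes per kilobase given below are therefore not ranks among expressed genes. The extracellular and receptor genes *Thbs1* and *Tgfbr2* were the highest of the 9 and *E2f2* the lowest, with a ratio of 33.4 between *Thbs1* and *E2f2*. Without division by length, the median of the 9 was 2.68 log2 CPM and that of all genes 1.24. Among genes of at least 1 CPM the median was 3.65, and 4 of the 9 lay above it. From highest to lowest per kilobase the order was *Thbs1*, *Tgfbr2*, *Cdkn1a*, *Rbl2*, *Socs3*, *E2f1*, *Bcl2l11*, *E2f3* and *E2f2*. Whether neighbours in this order differ beyond the spread between mice cannot be read from a mean, and *Cdkn1a* and *Rbl2*, at 7.69 and 7.50 CPM per kilobase, changed places when the longest transcript of each gene was used, at 7.08 and 7.50. Shorter RefSeq transcripts with near-equal CPM were listed for *Tgfbr2* (3476 bases against 8092), *Cdkn1a* (922 against 1913) and *Bcl2l11* (2490 and 3538 against 5036). Division by these lengths would raise the levels per kilobase of these genes. The order above, with *Thbs1* first, therefore holds only for the transcripts used, and no order with the shorter ones was computed.

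**Figure D2:**
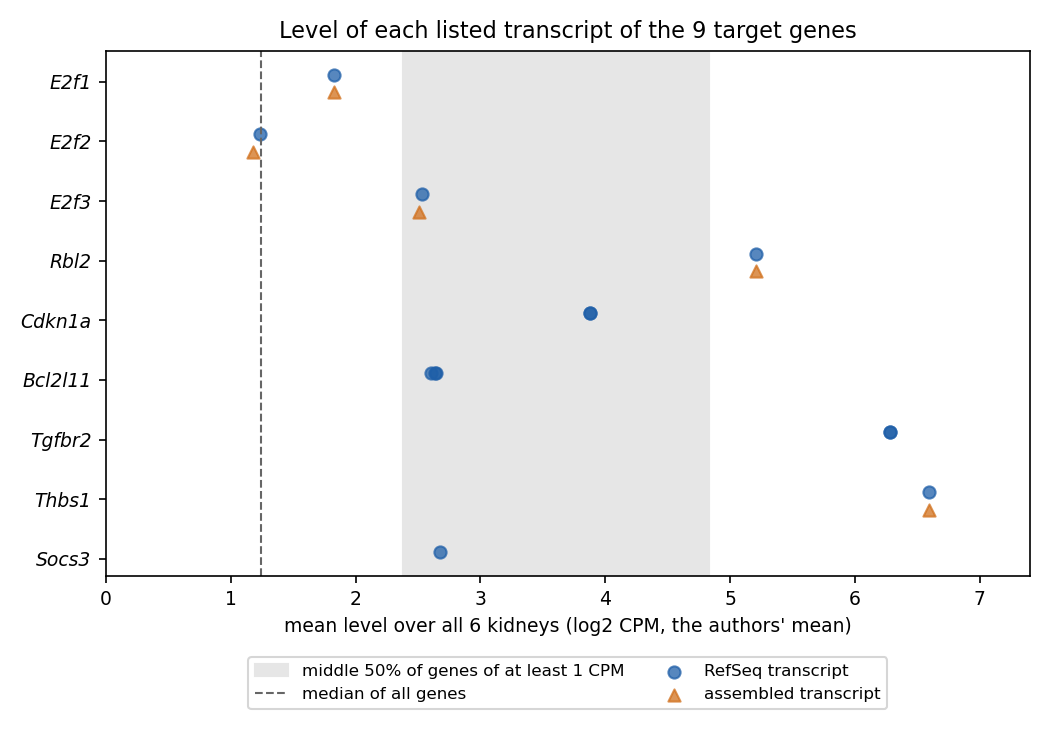
Mean log2 CPM over all 6 kidneys, not divided by length, of each of the 18 listed transcripts; circles are RefSeq transcripts and triangles transcripts assembled from the reads, the dashed line is the median of all genes at 1.24 and the grey band runs from 2.38 to 4.83, the middle 50% of genes of at least 1 CPM. Transcripts of 1 gene lie almost on top of each other, and *E2f2* lies at the dashed line while *Thbs1*, *Tgfbr2* and *Rbl2* lie to the right of the band.

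The E2F transcription factors switch on genes for DNA replication. *E2f1*, an activator of entry into S phase that can also drive apoptosis, was at 1.83 log2 CPM, a mean of 3.55 CPM. Per kilobase it stood above 53.3% of genes. Its RefSeq and assembled transcripts had the same value. The 3′ UTR of 1281 bases held miR-17 matches that start at bases 470 and 985 and a miR-18 match at base 1247, only 28 bases before its end. A miR-17 match was found in 12.2% of UTRs of like length (from 1/1.25 to 1.25 times as long), and *E2f1* held 2.

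*E2f2*, a further activator E2F, was at 1.23 log2 CPM, or 2.35 CPM. Per kilobase it was the lowest of the targets, at 0.496 CPM, and stood above 44.3% of genes. Its assembled transcript was at 1.17, the largest gap between transcripts of any of the 9 genes at 0.059 log2 units. Its 3′ UTR of 3020 bases held a miR-17 match at base 1342. At bases 985 and 988 it held the start of a miR-19 and of a miR-18 match that share bases, as the capitals of its second window show. The joint 10-base motif TTTGCACCTT occurred in 50 of 18927 UTRs or 0.264%, and among the 9 genes only *E2f2* held it. The share of UTRs that hold unrelated strings of 10 bases was not counted. A UTR of this length held a miR-17 match in 26.2% of genes, a miR-18 match in 18.1% and a miR-19 match in 22.0%.

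*E2f3*, the remaining activator E2F, was at 2.54 log2 CPM in its RefSeq transcript and 2.51 in the assembled one. Per kilobase it was at 1.14 CPM, above 51.8% of genes, beside 1.30 CPM for *E2f1*. Its 3′ UTR of 3328 bases held a miR-92 match at base 248 and a miR-17 match at base 1819. The latter was an 8-mer.

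*Rbl2* encodes the pocket protein p130, which binds repressor E2Fs and holds resting cells out of the cycle. It was at 5.21 log2 CPM in both of its transcripts, a mean of 36.9 CPM. The level per kilobase was 7.50 CPM, above 83.2% of genes, against 1.30, 1.14 and 0.496 for *E2f1*, *E2f3* and *E2f2*. Its 3′ UTR of 1398 bases held 3 matches close together. A miR-92 match started at base 672, a miR-17 8-mer 33 bases on, and another miR-17 match 61 bases after that. Of UTRs of like length, 13.5% held a miR-17 match and 6.71% a miR-92 match.

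*Cdkn1a* encodes p21, an inhibitor of cyclin-dependent kinases that p53 induces. It was at 3.88 log2 CPM, or 14.7 CPM, and per kilobase stood above 83.6% of genes. Its RefSeq transcripts differed by 0.0638% in CPM although their annotated 3′ UTRs are 1329 and 308 bases long. The single miR-17 match lay at base 436 of the longer UTR, a 7-mer, and the shorter UTR held none of the 4 matches. Reads that fall on bases common to both may have been counted for both, so the table does not show how much of the *Cdkn1a* RNA carries the match.

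*Bcl2l11* encodes BIM, a BH3-only protein that triggers mitochondrial apoptosis. Its 3 RefSeq transcripts were at 2.64, 2.63 and 2.60 log2 CPM, the first at 6.24 CPM and, per kilobase, above 52.8% of genes. They differ in their annotated 3′ UTRs, of 4218, 2899 and 1929 bases. The longest held 5 matches, more than any other of the 9 genes: miR-17 at bases 1449 and 2123, miR-92 at 2845 and 4120 and miR-19 at 4078. The match at 2123 and that at 4120 were 8-mers. The transcript with 2899 bases kept both miR-17 matches and 1 miR-92 match, and the one with 1929 bases kept 1 miR-17 match alone. The near-equal levels do not separate these forms, for the reason given for *Cdkn1a*. In UTRs of the length of the longest form, a miR-17 match was found in 33.1%.

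*Tgfbr2*, the type II receptor that binds TGF-β and activates the type I receptor, was at 6.28 log2 CPM, or 77.7 CPM, and per kilobase stood above 86.8% of genes. Its RefSeq transcripts, with annotated UTRs of 6085 and 1449 bases, differed by 0.0552% in CPM. A miR-19 match began at base 295 and a miR-17 8-mer at base 298, so both transcripts hold the overlapping pair. The 10 letters TTTGCACTTT that make this pair occurred in 121 UTRs, 0.639% of all, and in none of the other 8 target genes. Of the 453 UTRs of like length, 44.4% held a miR-17 match and 36.4% a miR-19 match.

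*Thbs1* encodes thrombospondin 1, a secreted matrix protein that inhibits angiogenesis and can activate latent TGF-β. It was at 6.60 log2 CPM in both transcripts, or 96.8 CPM. Per kilobase, with the RefSeq transcripts used, it was the highest of the targets, above 92.4% of genes. That place depends on the use of the *Tgfbr2* transcript of 8092 bases, beside which one of 3476 bases had near-equal CPM. Its 3′ UTR of 2104 bases held neither a 7-base nor a 6-base miR-17 match. The single 7-base match was to miR-18, at base 35, near the stop codon. Of 6-base matches the UTR held 2 for miR-18, that one included, 1 for miR-19 and 0 for miR-92. Of UTRs of like length, 12.6% held a miR-18 match.

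*Socs3* encodes an inhibitor of JAK-STAT signalling that cytokines induce. Its only transcript was at 2.68 log2 CPM, or 6.40 CPM, and per kilobase it stood above 63.0% of genes. The 3′ UTR of 1474 bases held a miR-19 8-mer at base 1387, 81 bases before its end. The flanks of that match, 30 bases on each side, were 71.7% A or U, against 45.7% over the whole UTR. No miR-17 match to bases 2 to 8 was found, while the shorter 6-base match, to bases 2 to 7, occurred 1 time. Whether an A follows that 6-base match was not examined.

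Positions and flanks of the matches varied between the genes and were not compared with those of matches in other UTRs. Of the 21 matches, 11 centred nearer to the stop codon than to the end of their UTR and 10 nearer to the end. In 9 of 21 the flanks were richer in A and U than the whole UTR, and for miR-17 this was so in 3 of 10. The most AU-rich flanks around a miR-17 match were those of *Tgfbr2*, at 68.3%, and the least those of the first *E2f1* match, at 35.0%. The coding sequences held 2 matches, a miR-92 match in *Bcl2l11* and a miR-18 match in *Socs3*. In all 9 genes at least 1 of the 4 matches was present, which held for 26.4% of all UTRs. Matches of 2 or more families were present in 6 of the 9 genes, against 6.55% of all UTRs. Neither share was matched for length: all UTRs had a median of 787 bases and those of the 9 genes 2104. The 9 genes were also picked as known targets, so these counts are descriptions.

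The targets were then placed among the genes of their own families, by level per kilobase. With the longest transcript of each gene the place changed for 4 of the 9, as given for each, and was the same for the other 5. Places with the shorter RefSeq transcripts of *Tgfbr2*, *Cdkn1a* and *Bcl2l11* were not computed. *Thbs1*, with 16.6 CPM per kilobase, was the highest of 5 thrombospondins, ahead of *Thbs2* at 1.96, and cartilage *Comp* was the lowest at 0.0748. *Tgfbr2*, at 9.60, was second of 10 TGF-β receptors, ligands and SMADs to *Tgfbr1* at 10.6, the type I receptor with which it pairs, and the ligand *Tgfb3* was the lowest at 1.43. *Cdkn1a* was the third of 7 CDK inhibitors, between the highest, *Cdkn1b* at 12.2, which encodes p27, and the lowest, *Cdkn2a* at 0.108, the locus of p16 and ARF. With the longest transcripts *Cdkn1b* fell to 6.42 and *Cdkn1a*, at 7.08, was second to *Cdkn1c* at 8.90. *Rbl2* was second of 13 E2F and pocket protein genes, behind the E2F partner *Tfdp1* at 9.65, and was first with the longest transcripts, where *Tfdp1* stood at 6.12. The activator E2Fs stood at places 9, 10 and 12 for *E2f1*, *E2f3* and *E2f2*, and only *E2f7*, an atypical repressor E2F, was below *E2f2*, at 0.295. *Socs3* was the sixth of 8 SOCS genes at 2.51, with *Cish* the highest at 4.52 and *Socs1* the lowest at 0.0660. With the longest transcripts it was at place 4, above *Socs6* at 1.89 and *Socs2* at 1.80. *Bcl2l11* was at place 12 of 14 in the BCL2 family at 1.24, far below the survival gene *Mcl1* at 32.4 and above *Hrk* at 0.00923, another BH3-only gene. With the longest transcripts it was at place 11, above *Bik* at 1.06. The relatives *Thbs2*, *Cdkn1c*, *Socs6*, *Socs2* and *Bik* were named after their values were seen. These are mean levels with no error, and no test of the order was possible.

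**Figure D3:**
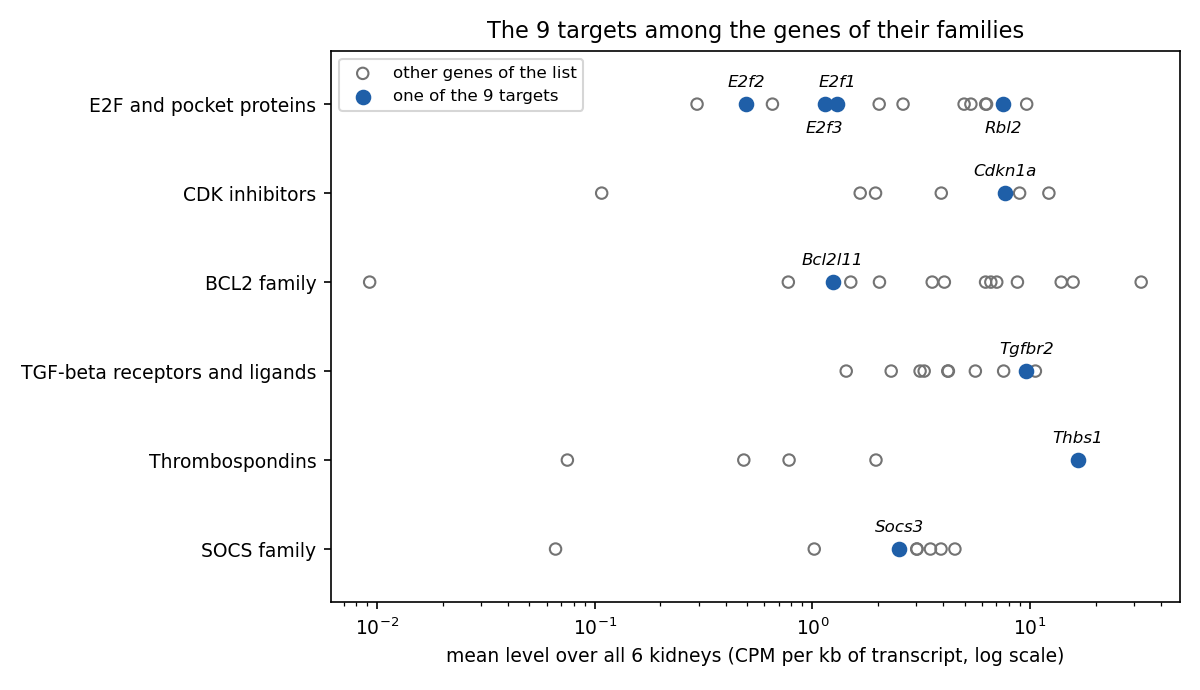
Mean level over all 6 kidneys in CPM per kilobase of transcript (log scale) of each gene of the 6 families; filled points are the 9 targets and open points the other genes. *Thbs1* stands above all other thrombospondins, and *Tgfbr2*, with its longer RefSeq transcript, is second in its family. *Rbl2* is second in its family here and first with the longest transcripts, and *Bcl2l11* and the activator E2Fs lie near the low end.

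The miR-17 match was also found in relatives of the targets. Of the 48 other genes of the 6 families, 14 held it in the 3′ UTR, or 29.2%, against 11.0% of all UTRs. The UTRs of these 48 genes had a median length of 1324 bases, against 787 for all UTRs. The 2 shares were thus not matched for length. The relatives that follow were named after their matches were seen. In the E2F and pocket protein family they were *E2f5*, *Rb1* and *Rbl1*, so that all 3 pocket protein genes held a miR-17 match. In the BCL2 family they were the BH3-only genes *Bid* and *Bmf* and the survival genes *Bcl2*, *Bcl2l2* and *Mcl1*. Of the 6 other CDK inhibitors none held it. *Smad2* and *Smad7* held it among the TGF-β genes. In the thrombospondin and SOCS families the member chosen as a target had no miR-17 match, while *Thbs2*, with 2, and *Socs4*, *Socs6* and *Socs7*, with 1 each, did. A match is a string of letters in the reference, and its occupancy by a miRNA was not measured in these kidneys.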

How the data were processed

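Total kidney RNA of 3 *Pkd1*F/RC SKO and 3 *Pkd1*F/RC DKO mice was sequenced by the authors as stranded total RNA libraries. Per the study's methods, trimmed reads were mapped to mm10 with TopHat and the iGenomes annotation, and alignments of low mapping quality were dropped. The submitters' processing notes name bcl2fastq 1.8.4, TopHat2 2.0.12, Cufflinks, featureCounts of Subread 1.4.6 and edgeR 3.2.4. The deposited table lists 54721 transcripts, of which 24160 were assembled from the reads and 9317 carry no gene symbol. The deposited log2 value that was used is the authors' mean log2 CPM over all 6 kidneys. The other columns hold the fold change, statistic and p-values of the authors' comparison and were not used. The table has no value per kidney, so depth is unknown, no interval was set, and the planned edgeR quasi-likelihood test of DKO against SKO was not run.

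The highest transcript of a symbol stood for the gene. Its rank is the share of symbols with a lower value, per kilobase in the text. For levels per length and for 3′ UTRs, the highest RefSeq transcript was paired by identifier with GENCODE M21 (GRCm38, the assembly of mm10). These models may differ from those the authors counted on, and reads may have been counted for every transcript of a gene they overlap, as some transcripts of 1 gene have the same value. A UTR was read for 18927 of 20470 symbols with a RefSeq mRNA. Seed matches are exact matches on the sense strand to the complement of bases 2 to 8 of mature miRNAs from RefSeq. The 8-mer has an A after the match and the 6-mer pairs with bases 2 to 7. A match to bases 2 to 7 followed by an A was not searched for separately. Matches of the families can overlap. The search and the coordinate conversion were tested on simulated sequence. Python 3.11.15, numpy 2.4.6, pandas 2.3.3 and matplotlib 3.10.9 were used.

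The 9 genes, the family lists and the markers were chosen with earlier results of these data known. Named genes are the 9 targets, the cluster's entries and the highest and lowest gene of each family list per kilobase. The relatives that fall outside this rule, and the markers named singly, were named after their values or matches were seen. Of 4 macrophage markers, *Adgre1* is listed under its older name *Emr1*.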

Additional observations from a re-analysis of the deposited data

How the results depend on the processing

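Summing CPM over the RefSeq transcripts of a gene in place of taking the highest row raised the median of the 9 targets from 2.68 to 4.21 log2 CPM, which is the summed value of *Bcl2l11*. The sum also raised *Cdkn1a* and *Tgfbr2* past 1.5 times, and it may count shared reads again. Ranking among genes of at least 1 CPM in place of all genes lowered the median percentile by CPM, not divided by length, from 60.8 to 29.9, and the rank of 6 of the 9 moved by over 10 percentage points. With the 8-mer match, the number of targets was 4 for miR-17, 0 for miR-18, 1 for miR-19 and 1 for miR-92, in place of 7, 3, 4 and 3. With the 6-mer match, the miR-92 count rose to 5, and the others were 8, 4 and 5. The 6-mers of miR-17, miR-18, miR-19 and miR-92 were held by 33.5%, 28.8%, 21.5% and 21.9% of all UTRs. The longest UTR of each gene gave the same counts as its RefSeq transcript. It was the UTR already used, except for *Cdkn1a* (1334 bases against 1329), so this setting could hardly give other counts. RefSeq rows alone and the longest transcript left all 9 levels and all 9 levels per kilobase of the targets within 1.5 times. These settings could change little, since only *Rbl2* had a highest row outside RefSeq. The transcript used was already the longest except for *E2f1* (2732 bases against 2755) and *Cdkn1a* (1913 against 2080). Shorter RefSeq transcripts, which hold fewer matches in *Cdkn1a* and *Bcl2l11*, were not used as a setting. The levels of relatives moved more: with the longest transcript of each gene, an alternative chosen after the data were seen, the family place changed for *Rbl2* (2 to 1), *Cdkn1a* (3 to 2), *Socs3* (6 to 4) and *Bcl2l11* (12 to 11). No paired analysis was possible because the only values used are means over all 6 kidneys. Leaving out each mouse in turn was not run for the same reason. Depth per library is unknown.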
